A study of Mus musculus with 4 samples.

Results

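Solute carriers are membrane proteins that move amino acids, sugars, vitamins, metals, ions and metabolites across the plasma membrane and the membranes of organelles. Their genes are grouped into numbered families (Slc1, Slc2 and so on) by sequence, and members of a family mostly share a kind of substrate. Embryonic stem (ES) cells divide rapidly and depend on imported amino acids, and their mitochondria exchange phosphate, nucleotides and carboxylates with the cytosol through the Slc25 carriers. The solute carrier genes described here were chosen by name and by level: rows of the deposited table with a single symbol that starts with Slc and a digit, at 1 FPKM or more (RNA fragments sequenced per kilobase of transcript, relative to library depth) in at least 1 condition. Slc2a1, Slc2a3, Slc16a1, Slc16a3 and Slc25a31 were left out by name. This gave 200 genes in 201 rows of the 27542 in the table, with Slc25a28 in 2 rows at the same locus. The FPKM values that chose the members are those compared below, so every difference is given as a description.

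The samples were mouse TBV2 ES cells cultured with serum and LIF, on feeder cells at high density by the series text. The KD group was 3 clones in which T-UCstem1 was knocked down, and the authors combined the clones into 1 FPKM per gene. T-UCstem1 is a noncoding transcript that holds an ultraconserved element. The NT group was 1 library of cells with a non-targeting control. Clones can differ from each other and from the control for reasons other than the knockdown, and neither condition has a measured spread here. The depth of each library is unknown, so no value carries an error or an interval. Of the 6 ES cell markers on a list 5 were found, in 6 rows that summed to 2570 FPKM in KD cells and 2482 FPKM in NT cells. Of these 6 rows 3 were higher in KD cells and 0 were marked as significant by the authors; Pou5f1 was at 1078 FPKM in KD cells and 1036 FPKM in NT cells, and Sox2 at 216 FPKM in KD cells and 257 FPKM in NT cells. The 17 markers of primitive and visceral endoderm summed to 475 FPKM in KD cells, from 0.0522 to 109 FPKM each, and to 63.2 FPKM in NT cells, from 0 to 19.9 FPKM each. All 17 were higher in KD cells, the authors marked 11 as significant, and Ttr and Afp were listed at 0 in NT cells. Among all rows with 1 symbol at 1 FPKM or more, 53.1% were higher in KD cells. Of all rows tested by the authors, 0.963% were marked as higher. The 16 feeder fibroblast markers summed to 33.4 FPKM in KD cells, from 0 to 7.06 FPKM each, and 15.7 FPKM in NT cells, from 0 to 5.08 FPKM each. In this list 13 were higher in KD cells, 1 was marked (Pdgfra, which the endoderm list also holds), Lum was listed at 0 in both conditions and Fap in NT cells. The part of these cells in the values below was not tested, and in bulk RNA more cells of a type and more RNA per cell cannot be told apart.

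None of the solute carrier genes chosen here was marked as changed by the authors. Their mark, which follows the Cuffdiff q-value, was on 1.15% of all 15477 tested rows (0.963% higher and 0.187% lower in KD cells), and on 0 of the 201 member rows, all of which were tested. The lowest member q in the authors' deposited table was 0.0553, for the metal importer gene Slc39a8. At a deposited Cuffdiff p under 0.05 without adjustment there were 9 members with a higher and 10 with a lower value in KD cells. Over all tested rows the same limit gave 6.1% higher and 2.78% lower, 8.88% in all. The tested rows, here and below, were taken without an FPKM minimum and include rows with several symbols, unlike the members. Over the members the same limit gave 4.48% higher and 4.98% lower, 9.45% in all. Of these, 4 of the 9 higher members passed the FPKM minimum in KD cells alone and 2 of the 10 lower ones in NT cells alone. On the scale log2((KD FPKM + 1)/(NT FPKM + 1)), used for every log2 fold below, 1 member was at 1 or more and 0 were at -1 or less. Among all 11993 rows with 1 symbol at the same FPKM minimum, 3.19% were at 1 or more and 0.525% at -1 or less. With a pseudocount of 0.1 FPKM the member counts were 10 and 5, against 5.78% and 1.38% of all these rows. Of the 10, 7 had passed the minimum in KD cells alone, and of the 5, 2 had passed in NT cells alone.

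The median of the members' log2 folds was -0.065, and their quartiles were -0.25 and 0.19. With no FPKM minimum the median was 0.0029, so its sign depends on the minimum. Over all 11993 rows the median was 0.021 and the quartiles -0.16 and 0.22. A higher value in KD cells was listed for 88 members (43.8%), and for 53.1% of all rows. Summed over members the level was 3598 FPKM in KD cells and 3969 FPKM in NT cells, a difference of -372 FPKM. The mitochondrial phosphate carrier gene Slc25a3 made up 34.2% of that difference. A few genes carried most of the signal, since the 20 most abundant members held 57.1% of the KD sum and 59.8% of the NT sum.

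**Figure D1:**
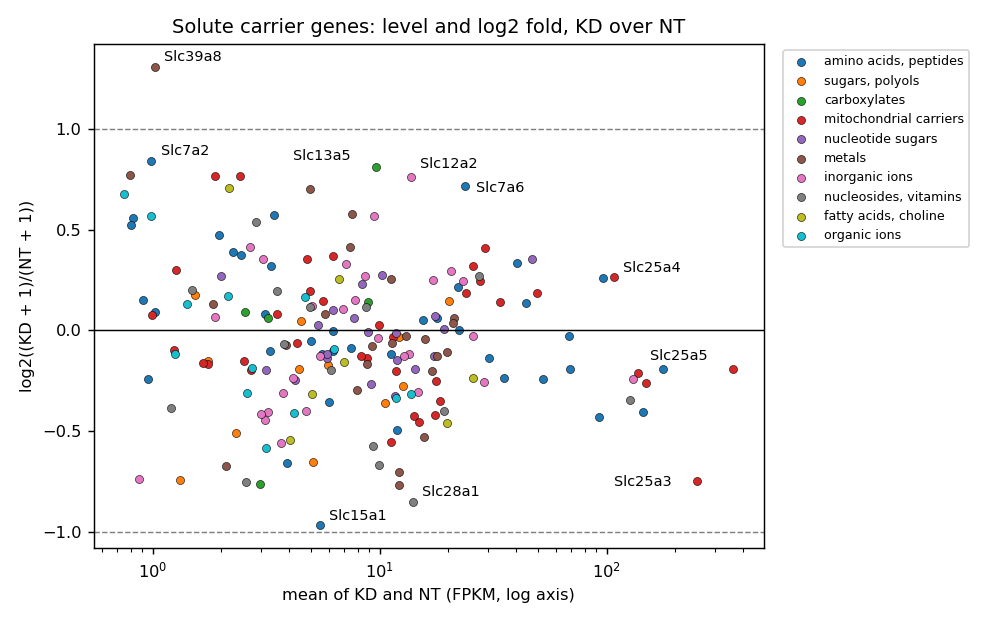
Each point is 1 solute carrier row, with the mean of its KD and NT values (FPKM, log axis) on the x axis, its log2((KD + 1)/(NT + 1)) on the y axis and its substrate class in colour. Slc39a8 is the 1 point above the upper dashed line at 1, and 0 points lie below the lower dashed line at -1.

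The direction varied with level. Of the 14 members with a mean of 50 FPKM or more, 12 were lower in KD cells (85.7%), against 44.5% of all rows in that range. The exceptions were Slc25a4 and Slc38a2. In the range of 20 to 50 FPKM 5 of 23 members were lower (21.7%), against 47.7% of all rows, and the member median was 0.18. Between 5 and 20 FPKM 60 of 88 were lower (68.2%), against 51.7% of all rows, with a member median of -0.12. Under 5 FPKM 36 of 76 were lower (47.4%), against 41.5% of all rows. These 4 ranges were set after the values were seen.

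Members were grouped into 10 substrate classes by family number, so a class can hold genes whose substrate differs from its name. Class medians ran between -0.24 and 0.091, and the members of a class ranged on both sides of 0 in all 10. Nucleotide sugar carriers had the narrowest range and metal transporters the widest. The lowest medians were those of the fatty acid and choline-like, nucleoside and vitamin, and sugar transporters. The only class median above 0 was that of the 5 carboxylate transporters. With no FPKM minimum the medians of amino acid, sugar, nucleotide sugar and inorganic ion transporters were also above 0, at 0.014, 0.023, 0.016 and 0.012.

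**Figure D2:**
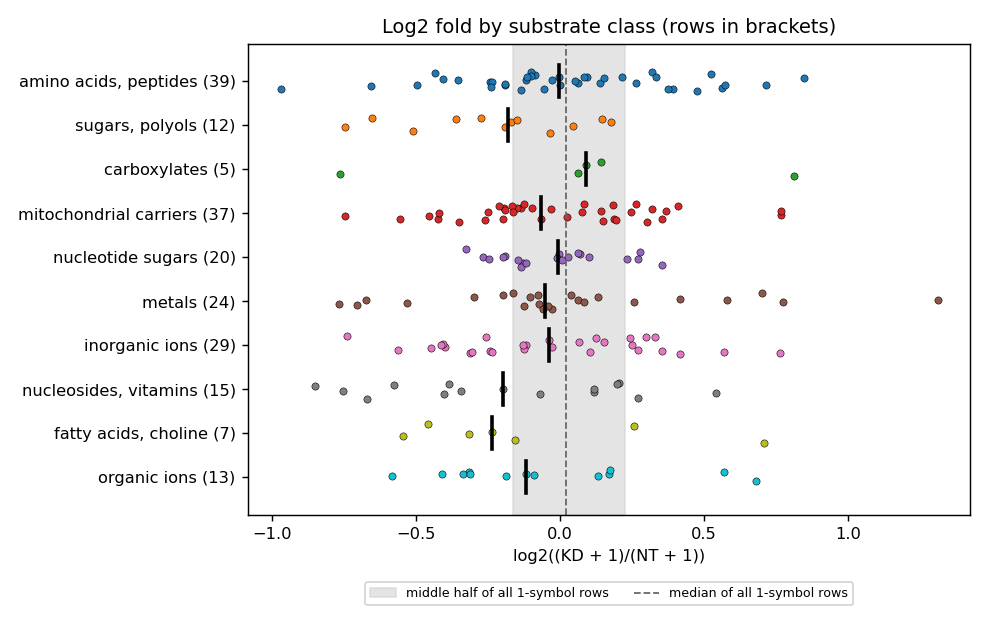
Log2((KD + 1)/(NT + 1)) of each solute carrier row (points) by substrate class, with the class median as a black bar and the number of rows in brackets. The grey band spans the quartiles of all 11993 rows with 1 symbol, -0.16 to 0.22, and the dashed line their median of 0.021; most class medians lie inside the band and 3 lie below it.

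Amino acid, peptide and neurotransmitter transporters had 39 expressed genes of 70 in the table. Their median log2 fold was -0.0036, with 19 above and 20 below 0, and -0.11 with a minimum of 5 FPKM. The most abundant were the partners of system L, the exchanger of large neutral amino acids. Slc3a2, the heavy chain CD98 that carries several light chains to the membrane, was at 165 FPKM in KD cells and 189 FPKM in NT cells. Slc7a5, its light chain LAT1 (chromosome 8, 124405046 to 124431586 of mm9), was at 124 FPKM in KD cells and 165 FPKM in NT cells, and the authors' deposited table listed q = 0.655. Slc1a5, the glutamine and neutral amino acid exchanger ASCT2, was at 47.96 FPKM in KD cells and 57.0 FPKM in NT cells. All 3 values were thus lower in KD cells, with log2 folds between -0.41 and -0.19.

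Other light chains of Slc3a2 lay on the other side of 0. Slc7a6 and Slc7a7, exchangers of cationic for neutral amino acids, were at 29.9 and 45.1 FPKM in KD cells and 17.8 and 35.6 FPKM in NT cells. The log2 fold of Slc7a6 was 0.72, and the authors' deposited table listed q = 0.680. Its locus is shared with the rows of Slc7a6os and Prmt7, so reads may have been split between them. The same holds for Slc7a7, with Oxa1l, and for Slc3a2, with Snhg1 and Snord22. Slc7a11, the cystine and glutamate exchanger xCT, was low, at 2.90 FPKM in KD cells and 2.01 FPKM in NT cells. The system L genes Slc43a1 and Slc43a2, which need no heavy chain, had log2 folds of 0.47 and 0.32 at levels under 5 FPKM. Slc43a3, a purine nucleobase carrier of the same family, had a log2 fold of 0.57 at a level in that range. The light chains at 1 FPKM or more thus held values in both directions, and the system L light chain gene Slc7a8 was just under the minimum.

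Cationic amino acid uptake was divided in the same way. Slc7a3, a carrier of arginine and lysine, was at 78.7 FPKM in KD cells and 107 FPKM in NT cells. Slc7a1, the widely expressed carrier of the same substrates, was at 64.6 FPKM in KD cells and 73.9 FPKM in NT cells. Slc7a2, known from liver and macrophages, was at 1.56 FPKM in KD cells and 0.423 FPKM in NT cells, with a log2 fold of 0.84, or 1.66 with a pseudocount of 0.1 FPKM. The authors' deposited table listed p = 0.0027 and q = 0.13 for it. Slc7a2 passed the FPKM minimum in KD cells alone, so its difference is bound up with its choice. In all, 14 members passed in 1 condition alone, 10 of them in KD cells and 4 in NT cells. Slc39a8, Slc40a1 and Slc22a23 are among the 10, and Slc4a9 and Slc5a4b among the 4.

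Small neutral amino acids are taken up with sodium by Slc38 carriers. Their 9 expressed genes had a median of 0.082 and lay between -0.10 and 0.26. Slc38a2, the system A carrier SNAT2, was at 105 FPKM in KD cells and 87.3 FPKM in NT cells. Slc38a1 was at 46.5 FPKM in KD cells and 42.2 FPKM in NT cells, and Slc38a4 at 67.8 FPKM in KD cells and 69.1 FPKM in NT cells. The peptide transporters of Slc15 were on the lower side. Slc15a1, the proton-coupled carrier PEPT1 of short peptides (chromosome 14, 121858843 to 121904476), was at 3.38 FPKM in KD cells and 7.56 FPKM in NT cells, and its log2 fold of -0.97 was the lowest of all members. The p was 0.0101 and the q 0.252 in the authors' deposited table. Slc15a2, the higher-affinity peptide carrier PEPT2, was at 2.82 FPKM in KD cells and 5.03 FPKM in NT cells, and Slc15a4, a lysosomal carrier, at 7.21 FPKM in KD cells and 7.72 FPKM in NT cells.

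The promoter of Slc7a11 is shown because the gene is a known target of Atf4, the transcription factor of the amino acid response, whose binding element holds TGATGNAA. The sequence covers 250 bases before the start of the gene in RefSeq (GRCm38.p6, chr3:50443614-50443863, minus strand), read 5′ to 3′, with matches on either strand in capitals.
Slc7a11: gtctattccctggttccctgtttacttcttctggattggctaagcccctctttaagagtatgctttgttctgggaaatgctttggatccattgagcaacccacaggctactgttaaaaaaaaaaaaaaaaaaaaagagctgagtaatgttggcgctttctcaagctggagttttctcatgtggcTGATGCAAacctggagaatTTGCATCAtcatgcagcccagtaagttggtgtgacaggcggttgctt
It held 2 matches, on opposite strands. Promoters were found for 150 members by symbol, with 203 starts, of which 5 (2.46%) held a match. Among all 32851 promoters of that length the share was 3.45%. Those promoters were taken without an FPKM minimum, unlike those of the members. The 4 members with a match were Slc7a11, Slc7a7, Slc26a10 and Slc50a1, and Slc26a10 was at 2.78 FPKM in KD cells and 4.58 FPKM in NT cells.

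Sugar and polyol transporters were few and mostly on the lower side once Slc2a1 and Slc2a3 were left aside. The class had 12 expressed genes of 29, a median of -0.18, and 9 members below 0. Slc2a8, the intracellular glucose transporter GLUT8, was at 9.11 FPKM in KD cells and 11.998 FPKM in NT cells. Slc2a4, the insulin-responsive GLUT4, was at 1.76 FPKM in KD cells and 2.93 FPKM in NT cells. Slc5a11, a sodium-coupled myo-inositol carrier, was at 3.74 FPKM in KD cells and 6.44 FPKM in NT cells, and the authors' deposited table listed q = 0.76. Slc5a4b, of the same sodium-glucose family, was at 0.733 FPKM in KD cells and 1.91 FPKM in NT cells. Slc37a3, a relative of the sugar phosphate exchangers, was the most abundant at 21.3 FPKM in KD cells and 19.1 FPKM in NT cells. Slc45a4 was at 11.4 FPKM in KD cells and 14.03 FPKM in NT cells. Slc50a1, the sugar carrier SWEET1, was nearly even, at 12.03 FPKM in KD cells and 12.3 FPKM in NT cells.

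Carboxylate transporters had 5 expressed genes of 18. Slc13a5, the sodium-coupled citrate importer NaCT (chromosome 11, 72055271 to 72082058), was at 12.5 FPKM in KD cells and 6.71 FPKM in NT cells. Its log2 fold was 0.81, and the authors' deposited table listed p = 0.0112 and q = 0.268. Slc16a9, a carnitine carrier, was at 1.95 FPKM in KD cells and 4.01 FPKM in NT cells. Slc16a6 was at 9.37 FPKM in KD cells and 8.40 FPKM in NT cells, and it shares its locus with Arsg and Wipi1.

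Mitochondrial carriers, the Slc25 family, most of them in the inner membrane, were the most abundant class, with 36 expressed genes in 37 rows out of 46. They summed to 1288 FPKM in KD cells and 1482 FPKM in NT cells, which is 35.8% and 37.3% of all members. Their median was -0.065, equal to that of all members, with 17 rows above and 20 below 0. Slc25a3, which imports the phosphate used for ATP synthesis, had the largest difference in FPKM of any member, at 186 FPKM in KD cells and 313 FPKM in NT cells. Its log2 fold was -0.75, and the authors' deposited table listed p = 0.0012 and q = 0.0804, the second lowest q among the members. The gene lies on chromosome 10 (90579323 to 90586708 of mm9), where most genes had lower values in KD cells.

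The 2 main ADP/ATP carriers lay on opposite sides of 0. Slc25a5 (ANT2), typical of dividing cells, was the most abundant member, at 338 FPKM in KD cells and 385 FPKM in NT cells. Slc25a4 (ANT1), typical of heart and muscle, was at 118 FPKM in KD cells and 97.9 FPKM in NT cells. The aspartate and glutamate carriers of the malate shuttle were also divided, with Slc25a12 at 8.86 FPKM in KD cells and 13.5 FPKM in NT cells and Slc25a13 at 52.4 FPKM in KD cells and 45.9 FPKM in NT cells. Slc25a1, which exports citrate for lipid synthesis, was at 30.1 FPKM in KD cells and 25.3 FPKM in NT cells. Slc25a20, the acylcarnitine carrier of fatty acid oxidation, was at 33.4 FPKM in KD cells and 24.9 FPKM in NT cells.

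Slc25a24, an ATP-Mg and phosphate carrier, was at 3.31 FPKM in KD cells and 1.53 FPKM in NT cells. Slc25a10, the dicarboxylate carrier, was at 2.64 FPKM in KD cells and 1.14 FPKM in NT cells. Their log2 folds were 0.77 each, with q values of 0.541 and 0.45 in the authors' deposited table. Slc25a25 and Slc25a23, relatives of Slc25a24, lay nearer 0. Slc25a25 was at 7.17 FPKM in KD cells and 5.33 FPKM in NT cells, and Slc25a23 at 3.67 FPKM in KD cells and 3.40 FPKM in NT cells.

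The promoter of Slc25a3 is shown as that of the member with the largest difference in level, with the core of the hypoxia response element (ACGTG or GCGTG) in capitals. ACGTG is also part of the E-box CACGTG. The 250 bases lie at chr10:91123968-91124217 on the minus strand of GRCm38.p6, from RefSeq.
Slc25a3: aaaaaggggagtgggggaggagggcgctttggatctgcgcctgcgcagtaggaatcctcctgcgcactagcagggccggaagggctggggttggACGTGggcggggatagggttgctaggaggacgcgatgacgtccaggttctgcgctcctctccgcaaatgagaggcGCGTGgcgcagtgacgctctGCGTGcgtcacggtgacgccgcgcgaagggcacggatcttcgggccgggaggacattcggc
It held 3 matches. The core occurred in 53.2% of the members' promoters and 38.6% of all promoters of that length. The latter were taken without an FPKM minimum, so the sets are unlike and the shares are a description only. The 91 members with a match had a median log2 fold of -0.029 and the 59 without one 0.0048, so the members with and without the motif had nearly the same median.

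**Figure D3:**
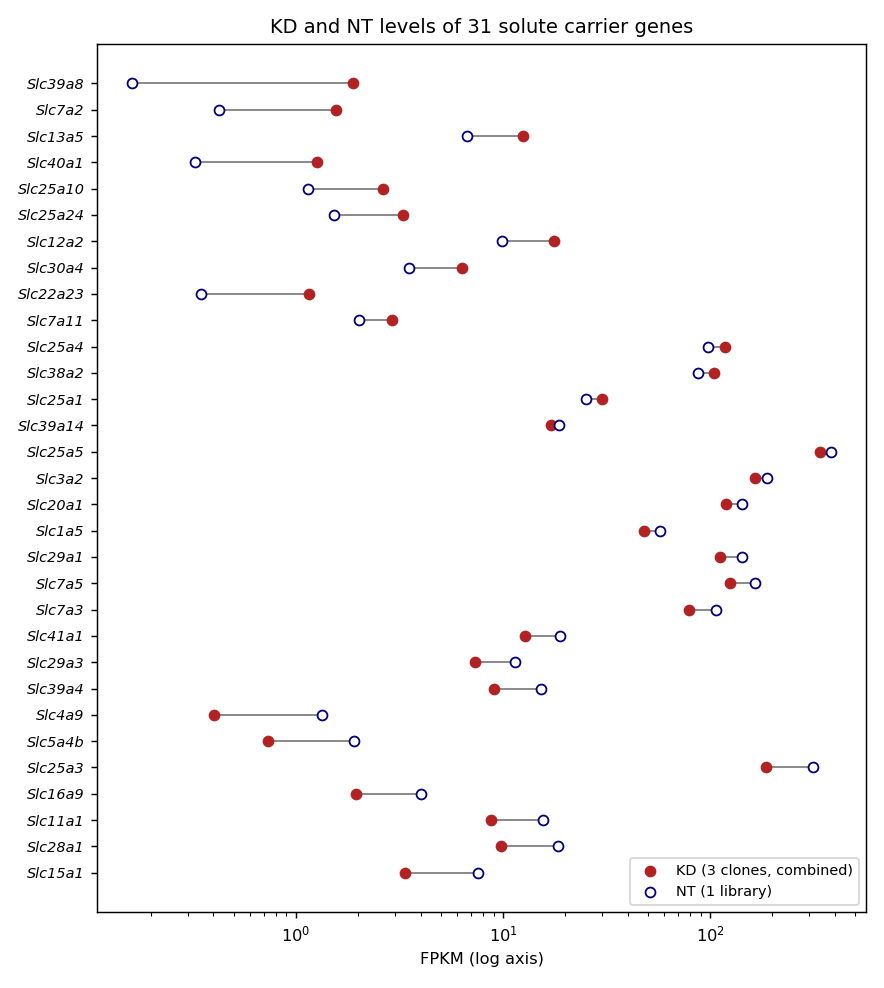
KD (filled) and NT (open) values of 31 solute carrier genes in FPKM on a log axis, ordered by log2 fold; the genes are those with a deposited p under 0.05 and 15 genes of a fixed list. The widest gaps are those of genes at low levels such as Slc39a8, Slc40a1 and Slc7a2, which passed the FPKM minimum in KD cells alone. By contrast, Slc25a5, Slc3a2 and Slc20a1 have nearly touching values above 100 FPKM.

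Metal transporters had 24 expressed genes of 31 and a median of -0.052. Slc39a8, the importer ZIP8 of zinc, iron, manganese and cadmium (chromosome 3, 135488243 to 135551536 of mm9), was at 1.88 FPKM in KD cells and 0.162 FPKM in NT cells. Its log2 fold of 1.31 was the highest of all members, and the authors' deposited table listed p = 0.0007. With a pseudocount of 0.1 FPKM the fold was 2.92. It passed the minimum in KD cells alone, as did Slc40a1. Slc40a1, ferroportin, which exports iron from cells, was at 1.27 FPKM in KD cells and 0.326 FPKM in NT cells, with a log2 fold of 0.77, or 1.68 with a pseudocount of 0.1 FPKM. The authors' deposited table listed q = 0.281 for it. Both stood at low levels, inside the KD ranges of the single endoderm markers (0.0522 to 109 FPKM) and feeder markers (0 to 7.06 FPKM). Ranges this wide do not set these genes apart from other members. All 17 endoderm markers and 13 of the 16 feeder markers were also higher in KD cells. The source of the RNA of Slc39a8 and Slc40a1 was not tested.

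The most abundant metal transporter genes were nearly even. Slc30a5, which loads zinc into the secretory pathway, was at 21.7 FPKM in KD cells and 20.7 FPKM in NT cells. Slc39a1, the widely expressed zinc importer ZIP1, was at 21.4 FPKM in KD cells and 20.8 FPKM in NT cells. The other zinc importers included Slc39a4, the intestinal importer ZIP4, at 9.02 FPKM in KD cells and 15.3 FPKM in NT cells. Slc39a14, ZIP14, which also carries zinc, iron and manganese, was at 17.1 FPKM in KD cells and 18.7 FPKM in NT cells. Over the 10 expressed Slc39 genes the sum was 95.6 FPKM in KD cells and 101 FPKM in NT cells. Zinc exporters of Slc30 summed to 81.1 FPKM in KD cells and 79.7 FPKM in NT cells over 7 genes. Within them Slc30a4 was at 6.34 FPKM in KD cells and 3.52 FPKM in NT cells, and Slc30a2, a vesicular exporter, at 9.28 FPKM in KD cells and 5.88 FPKM in NT cells. Slc30a1, the plasma membrane zinc exporter induced by zinc through the factor Mtf1, was at 12.9 FPKM in KD cells and 13.2 FPKM in NT cells. The summed levels of these importers and of these exporters were thus close between the conditions, with single genes apart. The importer sum leaves out Slc39a7 of the same family, which shares 1 row with H2-Ke6. That joint row was at 55.4 FPKM in KD cells and 42.4 FPKM in NT cells. Its reads cannot be assigned to 1 gene, so the direction of a sum over all Slc39 genes is not known.

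The promoters of Slc39a8 and Slc30a1 are shown to set the member with the highest fold beside the zinc-induced exporter at an even level. Capitals mark the core of the metal response element (TGCACNC or TGCGCNC) on either strand. Slc39a8 has 2 starts in RefSeq (GRCm38.p6, plus strand), at chr3:135825029-135825278 and chr3:135825407-135825656, and Slc30a1 has 1, at chr1:191906531-191906780 on the plus strand.
Slc39a8 first start: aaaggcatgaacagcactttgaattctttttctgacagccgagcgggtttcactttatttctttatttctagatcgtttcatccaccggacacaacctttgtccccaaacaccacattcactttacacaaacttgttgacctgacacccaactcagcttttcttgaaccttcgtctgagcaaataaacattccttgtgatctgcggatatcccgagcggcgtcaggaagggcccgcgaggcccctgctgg
Slc39a8 second start: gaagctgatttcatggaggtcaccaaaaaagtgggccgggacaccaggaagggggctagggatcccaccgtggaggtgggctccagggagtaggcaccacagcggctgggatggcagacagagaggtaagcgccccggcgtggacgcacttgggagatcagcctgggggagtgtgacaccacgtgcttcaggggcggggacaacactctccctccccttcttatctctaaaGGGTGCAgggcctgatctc
Slc30a1: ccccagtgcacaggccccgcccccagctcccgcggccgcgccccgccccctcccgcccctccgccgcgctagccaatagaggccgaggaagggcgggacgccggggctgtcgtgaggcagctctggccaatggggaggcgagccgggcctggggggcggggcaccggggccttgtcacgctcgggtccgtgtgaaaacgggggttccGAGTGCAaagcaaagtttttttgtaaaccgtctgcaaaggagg
The first Slc39a8 window held 0 matches, the second 1 and the Slc30a1 window 1. This core was present in 25.1% of the members' promoters and 21.4% of all promoters, which again had no FPKM minimum. The 47 members with it had a median log2 fold of -0.14 and the 103 without it 0.0048.

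Iron and magnesium carriers gave values on both sides. Slc11a1, the phagosomal metal carrier NRAMP1 of macrophages, was at 8.73 FPKM in KD cells and 15.6 FPKM in NT cells, and the authors' deposited table listed q = 0.527. Slc11a2, DMT1, the main iron importer of the gut and endosomes, was at 12.4 FPKM in KD cells and 10.2 FPKM in NT cells. Slc41a1, a magnesium carrier, was at 12.7 FPKM in KD cells and 18.8 FPKM in NT cells. The copper importer gene Slc31a1 was at 19.01 FPKM in KD cells and 20.5 FPKM in NT cells.

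Inorganic ion transporters had 29 expressed genes of 59 and a median of -0.038, which was 0.11 with a minimum of 5 FPKM and -0.12 without the class members that encode no carrier (Slc9a3r1, Slc9a3r2 and Slc4a1ap). Slc12a2, the sodium, potassium and chloride importer NKCC1 that raises cell volume, was at 17.6 FPKM in KD cells and 9.93 FPKM in NT cells. Its log2 fold was 0.76, and the authors' deposited table listed p = 0.0029 and q = 0.134. Slc12a4, the potassium and chloride exporter KCC1, was at 11.5 FPKM in KD cells and 7.43 FPKM in NT cells. Slc12a7, an exporter of the same family, was at 25.6 FPKM in KD cells and 26.2 FPKM in NT cells. An importer and an exporter of chloride thus both had higher values in KD cells.

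The phosphate importers of Slc20 both had lower values in KD cells. Slc20a1, the sodium-coupled phosphate importer PiT1, was at 120 FPKM in KD cells and 142 FPKM in NT cells, and Slc20a2, PiT2, at 26.1 FPKM in KD cells and 31.4 FPKM in NT cells. Slc4a5, a sodium bicarbonate cotransporter, was at 3.93 FPKM in KD cells and 5.50 FPKM in NT cells. Slc4a9, an anion exchanger of the same family, was at 0.401 FPKM in KD cells and 1.34 FPKM in NT cells. Slc8b1, the mitochondrial sodium and calcium exchanger, was at 13.1 FPKM in KD cells and 16.4 FPKM in NT cells. The members Slc9a3r1, Slc9a3r2, Slc4a1ap and Slc7a6os are named after a carrier but encode no carrier themselves; Slc9a3r1, which anchors transporters to the cytoskeleton, was at 25.3 FPKM in KD cells and 21.2 FPKM in NT cells.

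Nucleoside, vitamin and haem transporters had 15 expressed genes of 19 and a median of -0.20, or -0.069 without the members on chromosome 10. Slc29a1, the equilibrative nucleoside transporter ENT1, was at 112 FPKM in KD cells and 142 FPKM in NT cells. Slc28a1, the sodium-coupled pyrimidine nucleoside importer CNT1 (chromosome 7, 88259685 to 88315302), was at 9.76 FPKM in KD cells and 18.4 FPKM in NT cells. Its log2 fold of -0.85 was the second lowest of all members, and the authors' deposited table listed p = 0.0118 and q = 0.276. Slc29a3, a lysosomal nucleoside carrier, was at 7.30 FPKM in KD cells and 11.4 FPKM in NT cells. Slc29a4, a monoamine carrier of the same family, was the highest of the class in fold, at 3.57 FPKM in KD cells and 2.14 FPKM in NT cells.

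Among the vitamin carriers, Slc19a1, the reduced folate carrier, was at 7.44 FPKM in KD cells and 12.4 FPKM in NT cells. Slc46a1, the proton-coupled folate carrier, was at 5.17 FPKM in KD cells and 4.69 FPKM in NT cells. The thiamine carriers were divided, with Slc19a2 at 29.9985 FPKM in KD cells and 24.7 FPKM in NT cells and Slc19a3 at 1.68 FPKM in KD cells and 3.51 FPKM in NT cells. Slc23a2, a sodium-coupled ascorbate carrier, was at 16.4 FPKM in KD cells and 21.99 FPKM in NT cells. Riboflavin carriers Slc52a2 and Slc52a3 had log2 folds of 0.20 and -0.20. Slc48a1, a haem carrier of lysosomes, was at 9.10 FPKM in KD cells and 8.30 FPKM in NT cells.

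Fatty acid and choline-like transporters had 7 expressed genes of 10 and the lowest class median, -0.24. Slc44a1, a choline transporter, was at 23.5 FPKM in KD cells and 27.9 FPKM in NT cells. Slc44a2, of the same family, was at 16.5 FPKM in KD cells and 23.03 FPKM in NT cells. Slc44a3 lay on the other side, at 2.94 FPKM in KD cells and 1.41 FPKM in NT cells. Slc27a1, the fatty acid transport protein FATP1, was at 6.55 FPKM in KD cells and 7.42 FPKM in NT cells. Slc27a4, of the same family, was at 7.28 FPKM in KD cells and 5.93 FPKM in NT cells, whereas Slc27a2 was at 4.38 FPKM in KD cells and 5.71 FPKM in NT cells.

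Nucleotide sugar carriers feed glycosylation in the ER and Golgi. Their class, which by family number also holds the acetyl-CoA carrier gene Slc33a1, was the most even. The 20 expressed genes of 26 lay between -0.33 and 0.35, with a median of -0.0086 and sums of 230 FPKM in KD cells and 225 FPKM in NT cells. The most abundant, Slc35b1, a carrier of ATP into the ER, was at 52.5 FPKM in KD cells and 40.9 FPKM in NT cells. Slc35f2, the next in level, was even, at 19.2 FPKM in KD cells and 19.1 FPKM in NT cells. Slc35a2, the UDP-galactose carrier, was at 8.24 FPKM in KD cells and 10.1 FPKM in NT cells. Slc35b4, a carrier of UDP-xylose and UDP-N-acetylglucosamine, was at 11.3 FPKM in KD cells and 9.19 FPKM in NT cells, and Slc35f5 was at 10.3 FPKM in KD cells and 13.2 FPKM in NT cells.

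Organic ion, bile salt and drug transporters were mostly under 1 FPKM in both conditions. Of 51 genes 13 were expressed, and their median was -0.12. Slc17a9, the vesicular nucleotide carrier, was at 10.4 FPKM in KD cells and 13.4 FPKM in NT cells. Slc10a7, a relative of the bile salt carriers, was at 12.2 FPKM in KD cells and 15.4 FPKM in NT cells. Slc17a5, the lysosomal sialic acid exporter, was at 5.04 FPKM in KD cells and 4.38 FPKM in NT cells. Slc47a1, the proton-coupled exporter MATE1 of organic cations, was at 6.05 FPKM in KD cells and 6.52 FPKM in NT cells. Slc22a23, an orphan relative of the organic cation carriers, was at 1.16 FPKM in KD cells and 0.347 FPKM in NT cells, and the authors' deposited table listed p = 0.0108 and q = 0.262; it passed the FPKM minimum in KD cells alone.

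By chromosome, the members' median was lowest on chromosome 10. Of the 11 members there, 10 were lower in KD cells, with a median log2 fold of -0.58 and a range of -0.77 to 0.060. With no FPKM minimum the median of the solute carrier genes there was -0.096. All 590 rows with 1 symbol on chromosome 10 had a median of -0.17, and 67.1% of them were lower in KD cells. The 11 are Slc16a9, Slc25a3, Slc5a4b, Slc39a3, Slc19a1, Slc29a3, Slc26a10, Slc6a15, Slc18b1, Slc25a16 and, above 0, Slc35e3. Outside chromosome 10 the median of the 190 members was -0.036, against 0.029 for all 11403 rows. On chromosome 6 the 9 members had a median of 0.13 and all 551 rows 0.26. Members were also mostly lower in KD cells on chromosomes 19 (6 of 6), 4 (9 of 11) and 1 (8 of 10). Of all rows there 49.5%, 45.1% and 48.7% were lower. On chromosomes 15 and 11, by contrast, 4 of 12 and 9 of 23 members were lower. On chromosome X the 9 members had a median of -0.16 and all 421 rows 0.11. A difference in chromosome copy number between the clones and the control was not tested.

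**Figure D4:**
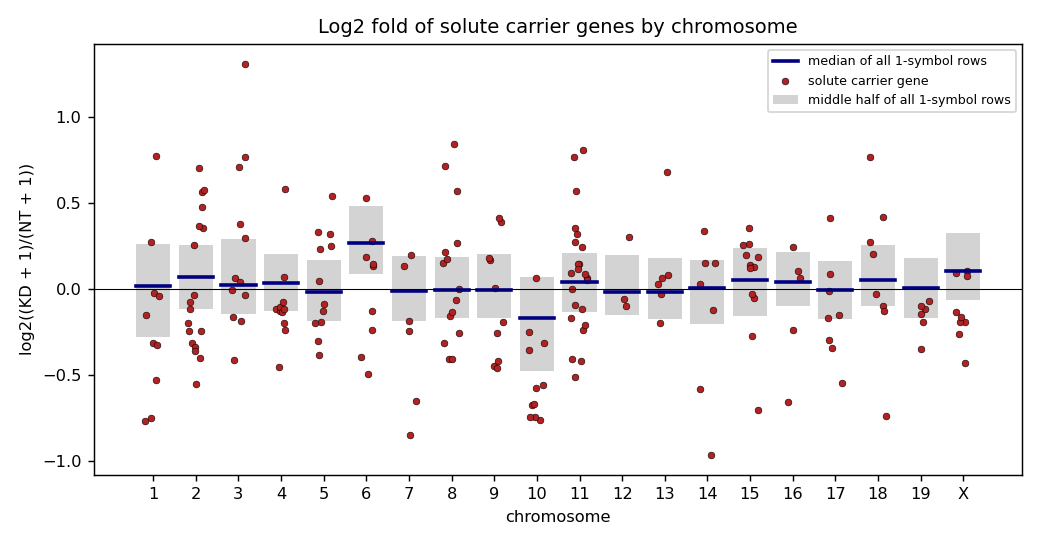
Log2((KD + 1)/(NT + 1)) of each solute carrier row (points) by chromosome, with the median (bar) and quartiles (grey box) of all rows with 1 symbol on that chromosome. On chromosome 10 the 11 members have a median of -0.58 and the 590 rows -0.17, while on chromosome 6 the 551 rows have a median of 0.26.

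Other genes of membrane transport, counted in lists by name, were set beside the solute carriers. Of 26 expressed ABC transporters 1 was marked lower, against 0.187% of all tested rows. It was Abcc2, an exporter of conjugated organic anions, at 0.899 FPKM in KD cells and 3.63 FPKM in NT cells. It passed the minimum in NT cells alone. The median of the ABC transporters was 0.033. Of 15 Slco carriers, which import organic anions and form a family of their own among the solute carriers, 4 were expressed and 2 of these were marked higher, against 0.963% of all tested rows. Slco2a1, a prostaglandin importer, was at 6.98 FPKM in KD cells and 0.673 FPKM in NT cells, and Slco3a1 at 2.81 FPKM in KD cells and 0.349 FPKM in NT cells. Both passed the FPKM minimum in KD cells alone, so the count of 2 is bound up with the choice of genes. None of 13 P-type cation pumps, 2 aquaporins, 14 carriers with other names or 8 accessory genes was marked. Their medians were -0.047 for the pumps, -0.13 for the carriers with other names and 0.092 for the accessory genes. Aqp8, a water channel, was at 6.23 FPKM in KD cells and 0.434 FPKM in NT cells, with a log2 fold of 2.33, and the authors' deposited table listed q = 0.0941; it too passed the minimum in KD cells alone. Aqp3, the other expressed aquaporin, was at 67.7 FPKM in KD cells and 70.1 FPKM in NT cells. Bsg, basigin, which chaperones monocarboxylate carriers, was at 163 FPKM in KD cells and 165 FPKM in NT cells.

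The rows not described by value were accounted for. Of 364 Slc rows with 1 symbol, 5 were left out by name and 158 were under 1 FPKM in both conditions. Of these 158, 26 were listed at 0 in both, 22 were tested by the authors and 0 were marked. Families Slc14, Slc24, Slc34 and Slc51 had no member at 1 FPKM. Just inside the minimum were Slc38a8 at 1.008 FPKM and Slc25a43 at 1.04 FPKM in KD cells, and just outside it Slc16a14 at 0.967 FPKM and Slc7a8 at 0.950 FPKM in KD cells. A further 9 rows joined an Slc symbol to other symbols and were left out, since their reads cannot be assigned to 1 gene; 0 of them were marked. The locus of 29 member rows was shared with at least 1 other expressed row.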

How the data were processed

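Total RNA (TRIzol) was sequenced on Illumina libraries, per the labels' protocols. The submitters' processing notes name TopHat, Cufflinks, Cuffdiff and build mm9. Information on tool versions, gene annotation, strand and library scaling was not given in the sources used here. Each gene's deposited FPKM is 1 value for a condition named treated, taken as the 3 KD clones combined by the authors, and 1 for control, taken as the NT library. Cuffdiff's p-value and q-value were deposited for each gene, and the authors' mark was on q values up to 0.0478. With 1 control library they hold no spread between control cultures, so no test was run here and no SD or n is given.

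Log2 folds were computed as log2((KD FPKM + 1)/(NT FPKM + 1)), which understates the change of genes at low FPKM; a log2 fold of 1 is 2-fold on that scale. The depth is unknown. Substrate classes follow the Slc family number. A class has a median where at least 5 rows pass the minimum of 1 FPKM. Genes described by name were all marked members (0), in each class the 2 highest and 2 lowest log2 folds at 5 FPKM or more and the 2 most abundant members, and 15 genes of a fixed list, from which 1 gene is not reported here; the others were chosen after their values were seen, among them the members with a p under 0.05. The members and lists were chosen with earlier results of these data known. Starts in the file count from 0, since 6768 gene spans then equal the RefSeq span and 396 would if they counted from 1; printed starts are shifted to count from 1. Promoters are from RefSeq (GRCm38.p6) and their coordinates were not set against mm9 ones. The calculation was tested on simulated data. Python 3.11.15, pandas 2.3.3, numpy 2.4.6 and matplotlib 3.10.9 were used. Settings tried were another pseudocount, FPKM minimum, set of rows, set of chromosomes and centring.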

Additional observations from a re-analysis of the deposited data

How the results depend on the processing

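The values rest on 1 FPKM per condition, so leaving out a clone could not be done, and differences between clones are hidden in the combined value. No paired analysis was possible because the table holds no value per clone. A median was taken as moved where it shifted by over 0.1 on the log2 scale. With a pseudocount of 0.1 FPKM, 10 members were at a log2 fold of 1 or more and 5 at -1 or less, most of them under 5 FPKM, and the chromosome 10 median was -0.70. With a minimum of 5 FPKM, 0 members were at 1 or more, since Slc39a8 left the list, and the medians were -0.11 for amino acid, -0.35 for nucleoside and vitamin, 0.11 for inorganic ion carriers (a reversal) and -0.47 on chromosome 10. With no minimum the medians were 0.0029 over all members, 0.014, 0.016 and 0.012 for amino acid, nucleotide sugar and inorganic ion carriers (changes of sign by under 0.1), 0.023 for sugar carriers (a reversal), -0.069 for nucleoside and vitamin carriers, 0 for organic ion carriers and -0.096 on chromosome 10. Without chromosomes 6, 10 and Y, or without chromosome 10 alone (a setting chosen after seeing the data), the nucleoside and vitamin median was -0.069. The setting with no minimum added 158 rows under 1 FPKM in both conditions. Of these, 26 were listed at 0 in both, which gives a log2 fold of 0. The cause of the shifts under these settings was not tested. The count of marked members was 0 under every setting run on it. Using tested rows only, leaving out the 4 genes that encode no carrier (chosen after seeing the data) and centring on the median of all genes (0.021) moved no median by over 0.1; without these 4 genes the inorganic ion median was -0.12.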
